A study of Mus musculus with 36 samples.

Results

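The genes described here encode the subunits of the mouse proteasome, together with its activators, inhibitor and assembly chaperones, as measured in eosinophils. They are the 48 symbols of the tissue table, and the 47 of the sorted-cell table, that begin with Psm, continue with a letter from a to g and then a digit. These tables hold 9844 and 8001 genes. All 48 and all 47 passed the filter on low values, under which 9806 and 7982 genes were tested. By known role, 7 are α subunits of the 20S core, 3 its constitutive catalytic β subunits, 4 its non-catalytic β subunits and 3 the immunosubunits Psmb8, Psmb9 and Psmb10. A further 6 are ATPases and 11 non-ATPase subunits of the 19S particle, 5 are activators of the PA28 and PA200 type, and 8 are assembly chaperones or inhibitors. The remaining symbol, Psmc3ip, matches by its name only: it is a cofactor of meiotic recombination and not a proteasome subunit. It has no row in the sorted-cell table and is kept apart from the sums by role below.

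The proteasome degrades proteins tagged with ubiquitin. Its 20S core is a barrel of α rings around β rings, in which Psmb5, Psmb6 and Psmb7 carry the proteolytic sites. In haematopoietic cells, and after interferon-γ, newly built cores take up Psmb8 in place of Psmb5, Psmb9 in place of Psmb6 and Psmb10 in place of Psmb7, which changes the peptides released for presentation on class I molecules. The 19S particle unfolds ubiquitin-tagged proteins and feeds them into the barrel, whereas the PA28 ring of Psme1 and Psme2 opens the barrel without needing ubiquitin.

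Eosinophils were flow-sorted from C57BL/6 mice aged 8-12 weeks at steady state, males and females pooled, and sequenced in bulk by Smart-seq2, which copies whole transcripts. Total eosinophils of Wildtype mice came from bone marrow (n = 3), blood (n = 4), spleen (n = 4), lung (n = 3), skin (n = 3), colon (n = 3) and small intestine (n = 4). A second set came from the small intestine of NMUR1-TdT reporter mice, in which a fluorescent protein marks cells using the receptor of neuromedin U, and held Nmur1+ (n = 5) and Nmur1- (n = 6) eosinophils. Whether the replicates of a group were different animals is not stated, so each p-value reflects the variation among libraries only, some of which may be technical.

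Levels are in TPM, a unit of transcript abundance. They divide reads by transcript length and scale to a fixed library total, so genes can be compared within a library. The depth is unknown. Changes are differences of mean log2(TPM + 1), each given relative to the median change of all genes in its comparison, and are too small for genes of low TPM because of the added 1. The tissue and sorted tables were analysed apart, and no level is compared between them. The p-values test the change before that shift, with limma, and a gene was called at an adjusted p under 0.05. Lung libraries held 7770 to 7876 genes of at least 1 TPM, and the other tissue libraries 8539 to 9325. Nmur1 was at 25.9 to 53.1 TPM in the positive and 0 to 15.6 TPM in the negative libraries. All 12 eosinophil markers listed were measured, with Epx at 0 in colon. They summed to 115617 to 161019 TPM in bone marrow, 9085 to 51296 in spleen and 2095 to 3594 in the other tissues. The erythroid and platelet list summed to 39191 to 118875 TPM in blood and 7830 to 18502 in bone marrow. It ranged from 85.6 to 39595 TPM in spleen, 2287 to 29165 in lung and 95.2 to 17811 in small intestine. Skin had 86.7 to 1534 TPM of it and colon 115 to 373. The neutrophil list (11 of 12 genes measured), which includes S100a8 and S100a9, summed to 52074 to 75126 TPM in bone marrow, blood, spleen and lung, to 11560 to 13854 in colon, 5923 to 7746 in small intestine and 4313 to 12319 in skin. Ly6g, Elane and Camp were at 0 in all skin libraries, and S100a8, Elane, Mpo, Camp and Ngp in all colon libraries. The macrophage list (7 of 11 genes measured) summed to 4492 to 5012 TPM in bone marrow and at most 1027 elsewhere. Nkg7, of the T and NK cell list, was at 594 to 755 TPM in bone marrow and at most 42.7 elsewhere. In these bulk samples a change in the make-up of the sorted cells and a change of RNA per cell cannot be told apart.

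Proteasome genes differed widely in level, down to 1.32 TPM for Psmf1 in a lung library. All 48 genes, Psmc3ip included, made up between 0.474% and 0.744% of the deposited TPM of a tissue library. This was lowest in a lung and highest in a bone marrow library. By summed TPM the core stood above the 19S particle in every tissue. The 14 core genes without immunosubunits summed to 3510 ± 181 TPM (SD, n = 3) in bone marrow, 3296 ± 324 (SD, n = 3) in skin and 2235 ± 71.6 (SD, n = 3) in lung. The 17 genes of the 19S particle summed to 1681 ± 320 TPM (SD, n = 3) in skin, 1292 ± 71.7 (SD, n = 3) in bone marrow and 648 ± 94.3 (SD, n = 3) in lung. These sums are in unscaled TPM, and after median-ratio scaling the mean core sum of lung reached that of skin. Single genes reached 598 TPM (Psma3, an α subunit, in a skin library) and 835 TPM (Psme2, in a lung library).

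Most members differed between tissues, as most genes did. Over the 7 tissue means, 44 of 48 members passed the limma F test, and 81.1% of all genes tested did. Those that did not pass were Psma7, Psmd3, Psmd9 and Psme4. The span from the lowest to the highest tissue mean had a median of 1.38 (log2) over the members and 1.84 over all genes tested. It was 0.87 for the constitutive catalytic subunits, 0.94 for the α subunits and 1.12 for the non-catalytic β subunits. The immunosubunits had a median span of 1.77, the 19S ATPases 1.66 and the 19S non-ATPases 1.62.

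**Figure D1:**
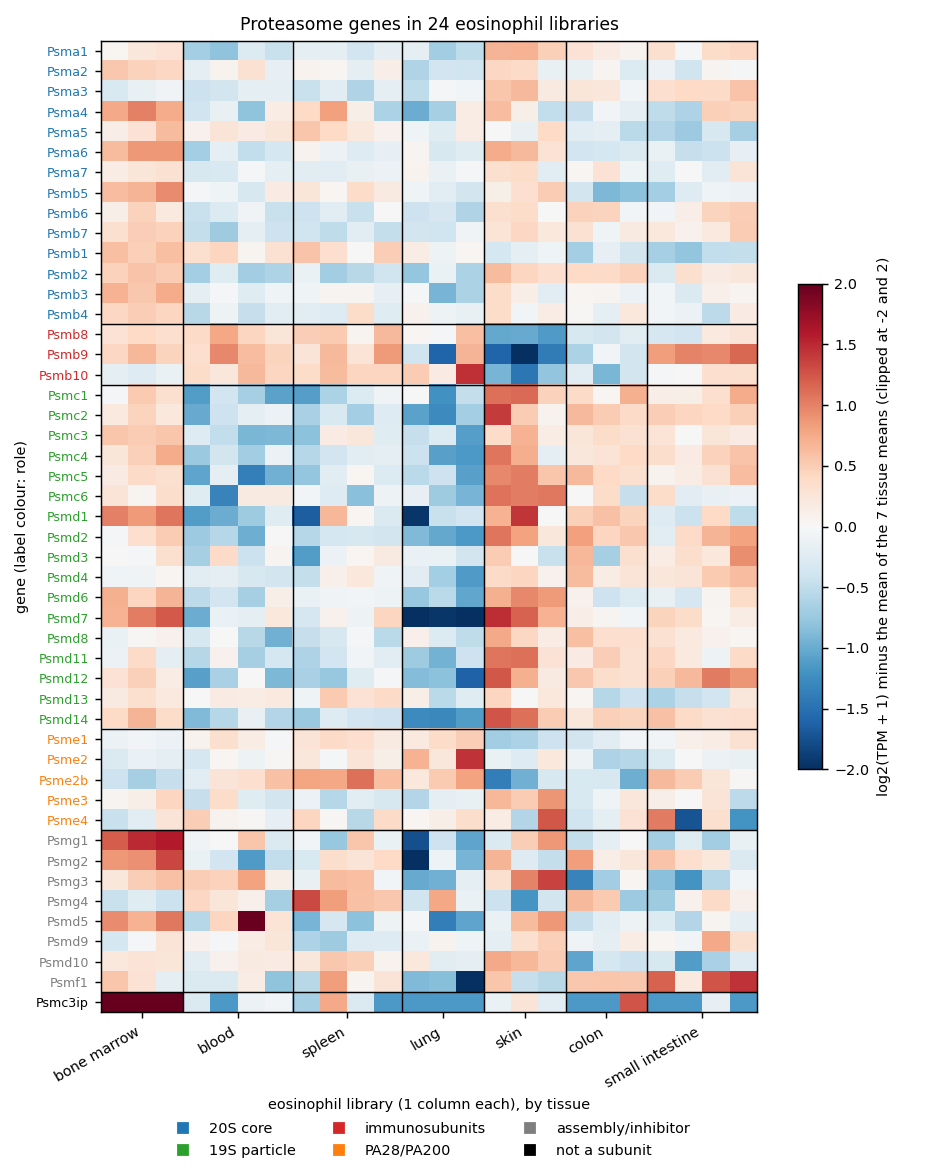
Each row is a gene and each column a library; colour is log2(TPM + 1) minus the mean of the 7 tissue means, clipped at -2 and 2, and label colour marks the role. Psmb8, Psmb9 and Psmb10 are blue in all skin columns, where most 19S rows are red, and Psmd7 is dark blue in the lung columns.

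Each tissue was then set against the mean of the other 6. In bone marrow 21 of 48 members were called higher (22% of all genes) and 1 lower (19.2%), against 32 and 1 after quantile normalization and 25 and none after median-ratio scaling. In skin 21 were called higher (22.2% of all genes) and 6 lower (12.5%). Blood had 4 called higher (14.2%) and 19 lower (18.3%), or 7 and 13 after quantile normalization. Spleen had 7 higher (17.4%) and 9 lower (12.5%), against 3 and 16 after median-ratio scaling. Small intestine had 12 higher (24.7%) and 8 lower (16.1%), against 4 and 15 after quantile normalization and 6 and 9 after median-ratio scaling. Colon had 6 higher (14.4%) and 8 lower (6.36%), but none higher and 14 lower after quantile normalization, 1 and 12 after median-ratio scaling, and no member higher without colon replicate 1. With single libraries left out, blood had 2 higher (without blood replicate 2, 3 or 4) and 11 lower (without 1). Colon had 2 higher without replicate 2 and 1 without 4, and 3 lower without 1 or 2. Small intestine had 7 higher without replicate 3, 6 without 4, and 3 lower without 2. Spleen had 4 lower without replicate 1, 5 without 2 and 14 without skin replicate 4, and the 1 lower call of bone marrow was lost without any of its libraries. Counted by libraries that lay above or below all others, small intestine had no member (4.47% of all genes above, 1.85% below), and bone marrow had none below (4.14%).

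In lung the median gene was itself 0.57 lower (log2) than in the other tissues, against -0.04 to 0.16 elsewhere. In lung 4 members were called higher (9.62% of all genes) and 26 lower (42.4%). After median-ratio scaling the counts were 9 and 11, after quantile normalization 4 and 17, and when changes were tested against the median gene, a setting chosen after seeing the data, 13 and 8. Psma1, Psma2, Psmb6 and Psmb7 were called lower in lung while their change relative to the median gene was between 0.03 and 0.25.

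**Figure D2:**
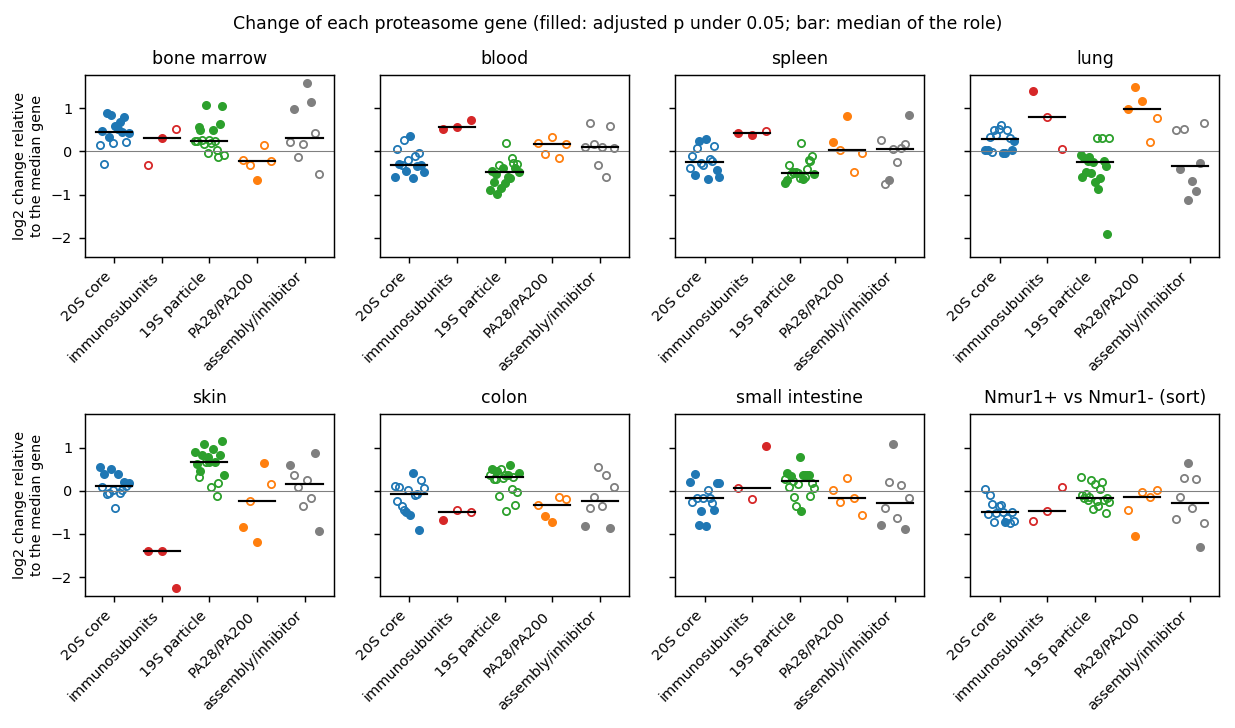
Each point is a gene, placed by its log2 change relative to the median gene in 1 comparison, and filled where the adjusted p was under 0.05; bars are medians by role, and Psmc3ip is left out. In skin the 3 immunosubunits lie between -2.25 and -1.39 while the 19S median is 0.67, and in blood the immunosubunit median is 0.58 and the 19S median -0.48.

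The catalytic subunits form 3 pairs of an immunosubunit and the subunit it replaces. Psmb8 and Psmb9 are neighbours in the class II region of chromosome 17 (mm10, GENCODE models), at chr17:34197721-34201454 on the plus strand and chr17:34181987-34187764 on the minus strand. Between them lies Tap1 (chr17:34187553-34197225), which encodes a subunit of the peptide transporter of class I loading. Psmb10 lies apart, at chr8:105935735-105938444 on the minus strand. Because Psmb8, Psmb9 and Psmb10 were called together in skin and in blood, and the genes they replace were not called in the same direction there, the 250 bases upstream of the RefSeq start (GRCm38.p6) are shown for these genes and for Psmb5 and Psmb6. Psmb7 was not matched. The Psmb8 and Psmb9 windows lie wholly inside the GENCODE models of these genes, downstream of the model starts. Those of Psmb10 and Psmb5 overlap their model starts. The Psmb9 window also runs into the start of Tap1. Capitals mark a match to a motif described after the sequences. The Psmb10 window held none of the motifs searched, and matches to the κB site (5 in Psmb9, overlapping in part, and 1 in Psmb6) are not in capitals:
Psmb8, chr17:34197945-34198194, plus strand: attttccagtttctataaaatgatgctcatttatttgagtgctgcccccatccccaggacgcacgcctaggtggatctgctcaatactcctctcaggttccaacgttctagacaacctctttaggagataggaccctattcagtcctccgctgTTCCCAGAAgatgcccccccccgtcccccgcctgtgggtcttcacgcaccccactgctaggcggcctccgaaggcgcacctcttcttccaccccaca
Psmb9, chr17:34187331-34187580, minus strand: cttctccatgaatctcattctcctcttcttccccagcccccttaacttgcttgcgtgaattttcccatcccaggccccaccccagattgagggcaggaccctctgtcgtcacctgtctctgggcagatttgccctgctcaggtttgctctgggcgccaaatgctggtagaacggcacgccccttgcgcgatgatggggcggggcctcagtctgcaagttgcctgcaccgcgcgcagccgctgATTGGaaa
Psmb10, chr8:105938393-105938642, minus strand: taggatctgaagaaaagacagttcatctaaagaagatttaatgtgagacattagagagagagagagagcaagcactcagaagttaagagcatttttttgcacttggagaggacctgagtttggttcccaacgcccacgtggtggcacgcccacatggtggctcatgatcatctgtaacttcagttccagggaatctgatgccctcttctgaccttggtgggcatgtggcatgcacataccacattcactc
Psmb5, chr14:54617996-54618245, minus strand: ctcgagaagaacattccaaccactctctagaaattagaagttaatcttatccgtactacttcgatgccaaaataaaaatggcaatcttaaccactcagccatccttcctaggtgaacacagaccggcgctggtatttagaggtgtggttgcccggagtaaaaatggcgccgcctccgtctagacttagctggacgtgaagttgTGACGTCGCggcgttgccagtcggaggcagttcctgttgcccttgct
Psmb6, chr11:70525107-70525356, plus strand: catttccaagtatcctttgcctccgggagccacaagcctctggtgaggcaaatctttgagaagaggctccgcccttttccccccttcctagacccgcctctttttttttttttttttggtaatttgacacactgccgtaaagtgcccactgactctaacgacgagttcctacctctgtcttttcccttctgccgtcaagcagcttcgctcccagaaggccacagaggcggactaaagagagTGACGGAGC

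Of the 48 members, 41 had an entry in the RefSeq promoter table, in 44 windows. Motifs were searched on both strands. The capitals in Psmb8 are a match to TTCNNNGAA, the gamma-activated sequence of interferon-γ target genes, which 7.02% of all 32851 promoter windows of this length hold and 4.55% of the member windows. Those in Psmb5 and Psmb6 match TGACNNNGC, the antioxidant response element bound by Nfe2l1 and Nfe2l2, found in 10.2% of all windows and 11.4% of the member windows. The capitals in Psmb9 are the reverse complement of CCAAT, held by 33.8% of all windows and 31.8% of the member windows. The interferon-stimulated response element, searched as GAAA and GAAA with NN between them, was in 2.98% of all windows and 6.82% of the member windows. None of the 3 immunosubunit windows held it, of which those of Psmb8 and Psmb9 lie inside the gene models. The κB site, searched as GGG and CC with NNNNN between them, was in 45.8% of all windows and 54.5% of the member windows. A match is a description of the letters and not a bound site.

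Psmb8, the β5i immunosubunit, was lowest in skin, at 122, 123 and 112 TPM in the 3 libraries. It reached 193 to 214 TPM in colon, 190 to 299 in small intestine, 243 to 376 in lung, 303 to 326 in bone marrow, 258 to 389 in spleen and 295 to 424 in blood. All skin libraries were below every other library, which held in the same direction for 1.1% of all genes tested. The change in skin was -1.39 ± 0.14 (SE; limma adjusted p = 2.09e-07), and between pairs of tissues skin was called lower than each of the other 6. Bone marrow, blood, spleen and lung were not called different from each other in Psmb8, and neither were colon and small intestine.

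Psmb9, the β1i immunosubunit, had the widest range of the catalytic subunits. Skin libraries were at 21.2, 12.0 and 24.7 TPM, colon at 42.5, 63.6 and 51.3, and lung at 50.4, 21.3 and 107. The level was 88.4 to 106 TPM in bone marrow, 83.7 to 130 in blood, 79.5 to 120 in spleen and 120 to 148 in small intestine. Skin overlapped only the lower end of lung, and lung itself spread from near the skin level to the blood level. Psmb9 fell by 2.25 ± 0.26 (SE) in skin (limma adjusted p = 7.28e-07) and rose by 1.04 ± 0.23 in small intestine (limma adjusted p = 0.00028). Skin was called lower than each of the other 6 tissues. Small intestine was not called different from bone marrow, blood or spleen, which were not called different from each other.

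Psmb10, the β2i immunosubunit, followed a similar order but with the lung mean at its top. Skin libraries were at 61.2, 42.5 and 68.0 TPM and colon at 100.01, 61.6 and 91.1, so these overlapped, and skin was not called lower than colon (limma adjusted p = 0.12). Bone marrow was at 97.6 to 107 TPM, small intestine at 114 to 149, blood at 137 to 185 and spleen at 153 to 184. Lung libraries were at 168, 132 and 326 TPM, the third above every other library. Lung was not called different from blood (limma adjusted p = 0.32) or spleen (0.39). Psmb10 fell by 1.39 ± 0.18 (SE) in skin (limma adjusted p = 8.60e-06) and rose by 1.40 ± 0.18 in lung (adjusted p = 0.000598). It also fell in colon, by 0.68 (adjusted p = 0.0218, or 0.251 without colon replicate 2).

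The constitutive partners had smaller spans between tissue means, at 1.44 (log2) for Psmb5, 0.74 for Psmb6 and 0.87 for Psmb7, against 1.51 for Psmb8, 2.78 for Psmb9 and 1.77 for Psmb10. Psmb5, which carries the chymotrypsin-like site, was at 306, 321 and 386 TPM in bone marrow and 154, 107 and 113 TPM in colon. All bone marrow libraries were above every other library (7.71% of all genes), and no other catalytic subunit showed this. Psmb5 rose by 0.79 ± 0.13 (SE) in bone marrow (limma adjusted p = 5.96e-06) and fell by 0.90 ± 0.13 in colon (adjusted p = 4.11e-05). Psmb6, with the caspase-like site, was at 152 to 230 TPM in blood, spleen and lung and at 222 to 324 in the other tissues, where ranges overlapped at 222 to 230 TPM. Psmb7, with the trypsin-like site, was at 45.9 to 72.8 TPM in blood, spleen and lung and at 71.4 to 108 TPM in bone marrow, skin, colon and small intestine. It was called lower in blood (-0.48 ± 0.12 SE, limma adjusted p = 0.00116) and spleen (-0.58 ± 0.12, adjusted p = 0.00385) and higher in bone marrow (0.42 ± 0.13, adjusted p = 0.00337), and by 0.86 there after quantile normalization.

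**Figure D3:**
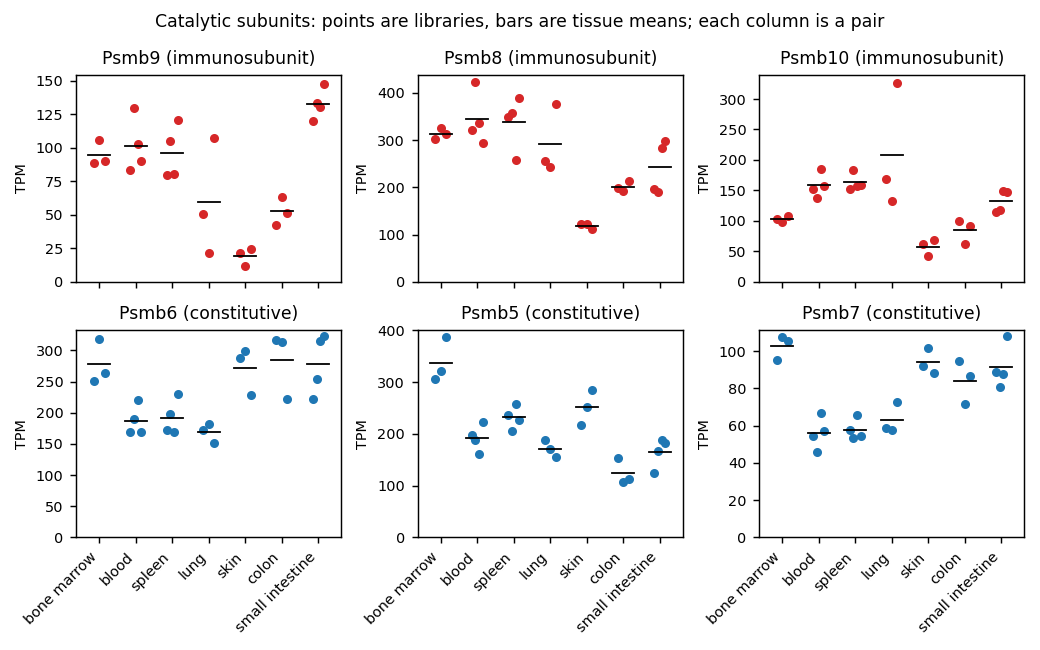
TPM of the 3 immunosubunits (upper row) above the constitutive subunits they replace (lower row), by tissue; points are libraries and bars tissue means, and each axis starts at 0. Skin is lowest in all upper panels by its mean, while in the lower panels skin lies at or above the blood, spleen and lung means.

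In blood all 3 immunosubunits were called higher: Psmb8 by 0.58 ± 0.13 (SE; limma adjusted p = 0.00211), Psmb9 by 0.73 ± 0.23 (adjusted p = 0.0268) and Psmb10 by 0.53 ± 0.16 (adjusted p = 0.0237). The Psmb8 call held in every alternative run. The Psmb9 call was lost without blood replicate 2 (adjusted p = 0.122) or 3 (0.0689), and the Psmb10 call without blood replicate 1 (0.0518), 3 (0.107) or 4 (0.0584). In spleen Psmb8 rose by 0.38 ± 0.13 (limma adjusted p = 0.00381; 0.61 after quantile normalization) and Psmb10 by 0.42 ± 0.16 (adjusted p = 0.0125, or 0.0531 after median-ratio scaling, 0.0521 against the median gene and 0.0575 without spleen replicate 2). In bone marrow only Psmb8 was called, at 0.32 ± 0.14 (limma adjusted p = 0.0297; 0.69 after quantile normalization), and not when tested against the median gene (0.078) or without bone marrow replicate 1 (0.0718), 2 (0.12) or 3 (0.0908).

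Within a library the share of catalytic transcripts that came from immunosubunits does not depend on the scaling. It was 24.1% ± 2.34 (SD, n = 3) in skin, 40.9% ± 4.34 (n = 3) in colon, 41.6% ± 1.43 (n = 3) in bone marrow, 48.6% ± 1.22 (n = 4) in small intestine, 55.2% ± 3.595 (n = 4) in spleen, 56.7% ± 9.98 (n = 3) in lung and 58.0% ± 3.04 (n = 4) in blood. The highest skin library, at 25.4%, lay below the lowest of all others, a colon library at 37.6%. Colon and bone marrow differed by less than the spread between colon libraries, and so did spleen, lung and blood among themselves.

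The 3 pairs did not divide alike. Psmb9 made up 6.82% ± 2.95 (SD, n = 3) of the summed Psmb9 and Psmb6 in skin and 35.1% ± 3.87 (n = 4) in blood, so that Psmb6 stood above Psmb9 in every tissue. Psmb10 made up 37.6% ± 7.31 (n = 3) of the summed Psmb10 and Psmb7 in skin, 49.7% ± 2.88 (n = 3) in colon and 75.1% ± 6.18 (n = 3) in lung. Psmb8 made up 32.3% ± 3.76 (n = 3) of the summed Psmb8 and Psmb5 in skin, 48.3% ± 3.09 (n = 3) in bone marrow and 59.1% to 64.0% as the mean of each of the other 5 tissues. In colon, where Psmb5 was at its lowest, this share was 62.0% ± 5.05 (n = 3) although Psmb8 itself was lower there than in blood.

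**Figure D4:**
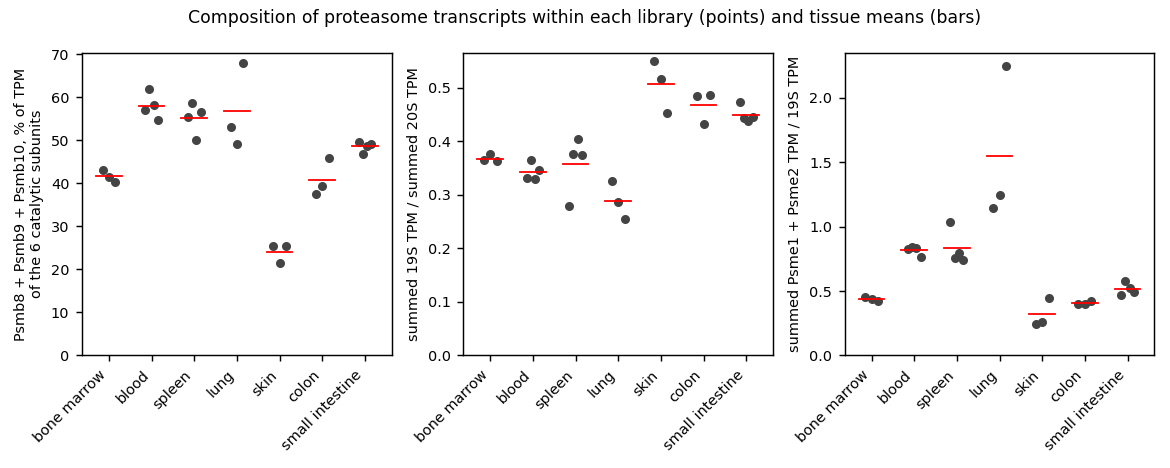
Points are libraries and bars tissue means for the immunosubunit share of the TPM of the 6 catalytic subunits, the summed 19S TPM per summed 20S TPM without immunosubunits, and the summed Psme1 and Psme2 TPM per 19S TPM; axes start at 0. Skin is lowest in the first panel (24.1%) and highest in the second (0.507), and lung has the lowest 19S ratio (0.289) and the highest PA28 ratio (1.55).

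The low immunosubunits in skin went with some of their partners and not with others. Of 12 genes listed for interferon signalling and class I presentation, 4 were called lower and 6 higher in skin, against 12.5% and 22.2% of all genes. Irf1, an interferon-induced transcription factor, was at 25.8 to 33.4 TPM in skin and 47.5 TPM or more in the libraries of the other tissues. It fell by 1.97 (limma adjusted p = 2.02e-06), Tap1 by 1.26, and Tap2, the other subunit of the peptide transporter, by 1.05. In contrast the class I heavy chain H2-K1 was at 3503 to 4247 TPM in skin and rose by 0.98, H2-D1 rose by 0.80, and Ifngr2, a chain of the interferon-γ receptor, by 2.04. In blood 3 of the 12 were called higher (14.2% of all genes), among them Irf1 and Tap1, as were the 3 immunosubunits, and H2-K1, Ifngr1 and Ifngr2 were called lower (18.3%). In bone marrow 8 of the 12 were called lower (19.2%) and none higher (22%). The neutrophil list was low in skin, with Ly6g, Elane and Camp at 0, and also in colon and small intestine. Its part in these results was not tested.

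The other core subunits mostly rose in bone marrow. Of the 14 core genes without immunosubunits 10 were called higher there (22% of all genes) and none lower (19.2%), with a median change of 0.46. Among all members 21 of 48 were called higher. Psmb3 was at 355, 321 and 367 TPM and Psmb4 at 230, 242 and 234 TPM. For both all bone marrow libraries were above every other library (7.71% of all genes). The largest changes were in Psma4 (0.90 ± 0.27 SE, limma adjusted p = 0.00474) and Psma6 (0.84 ± 0.12, adjusted p = 7.45e-07), both α subunits. In skin 6 of the 14 were called higher (22.2% of all genes) and none lower, but 3 after median-ratio scaling and 3 after quantile normalization. Psma1 was at 426, 430 and 371 TPM there, above every other library (3.96% of all genes). In blood 7 were called lower (18.3% of all genes) and only Psmb1 higher (14.2%). Psmb1 rose by 0.37 ± 0.11 (limma adjusted p = 0.0266, or 0.0795 without blood replicate 1, 0.112 without 2 and 0.0712 without 4). Without blood replicate 1 the counts were 4 lower and none higher. Psmb1 fell in small intestine by 0.82 ± 0.11 (adjusted p = 8.91e-06), where it was at 89.6 to 112 TPM, against 219 to 239 in bone marrow.

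The 19S particle split the tissues differently from the core. In skin 12 of 17 genes of the particle were called higher (22.2% of all genes) and none lower (12.5%). Their median change was 0.67 over all 17. Psmd7, a non-ATPase subunit that holds the deubiquitinase Psmd14 in place, was at 96.9, 78.6 and 55.8 TPM in skin, overlapping bone marrow at 55.9 to 81.0. Psmd14, which removes the ubiquitin chain, was at 201, 181 and 120 TPM in skin. They rose there by 1.14 ± 0.21 (SE; limma adjusted p = 2.14e-05) and 0.96 ± 0.15 (adjusted p = 2.23e-06). Psmc6, an ATPase, was at 127, 122 and 124 TPM in skin, above every other library (3.96% of all genes). It rose by 1.08 ± 0.23 (limma adjusted p = 0.000174). Psmd6 was above every other library in skin too. The count of 12 became 7 without skin replicate 1, the library highest in Psmd7 and Psmd14.

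In blood 12 of 17 genes of the 19S particle were called lower (18.3% of all genes) and none higher (14.2%). The median change of the particle was -0.48, and 7 were lower without blood replicate 1. The ATPase Psmc5 was at 26.4 to 61.4 TPM in blood and 73.1 to 143 TPM in bone marrow, skin, colon and small intestine, and fell by 0.996 ± 0.17 (SE; limma adjusted p = 3.77e-05). Psmc1 fell by 0.90 ± 0.20 (adjusted p = 0.000769). Psmd1, a scaffold subunit, fell by 0.85 ± 0.31 (adjusted p = 0.0319), a call lost without blood replicate 1 (0.117), 2 (0.0992) or 3 (0.0669). In spleen 4 were called lower (12.5% of all genes) and none higher (17.4%), with a median change of -0.49. The lower count was 1 without spleen replicate 1, 8 without skin replicate 4 and 9 after median-ratio scaling. Spleen replicate 1 had the lowest 19S sum of the spleen libraries, at 714 TPM against 934 to 972.

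In unscaled TPM lung had the lowest 19S sum. Median-ratio scaling divides by 0.736 to 0.749 in lung, 0.943 to 1.03 in blood and 0.955 to 1.14 in spleen libraries. After it the mean 19S sum of lung lay above those of blood and spleen. Unscaled, Psmd7 was at 5.63, 8.09 and 7.63 TPM in lung, and its lowest value in any other tissue library was 16.6. Psmd14 was at 34.0, 33.5 and 38.1 TPM, and Psmf1, an inhibitor of the core, at 6.90, 7.06 and 1.32 TPM. For these 3 genes all lung libraries lay below every other library, which held for 6.75% of all genes tested. Psmd7 fell by 1.91 ± 0.21 (SE; limma adjusted p = 1.02e-09), more than the median gene, and stayed called under each alternative run. Of the 17 genes 14 were called lower (42.4% of all genes) and none higher (9.62%) in lung. The lower calls were 7 after median-ratio scaling, 9 after quantile normalization and 5 against the median gene. The summed 19S TPM per 20S TPM was 0.289 ± 0.035 (SD, n = 3) in lung, 0.343 ± 0.016 (n = 4) in blood, 0.359 ± 0.055 (n = 4) in spleen and 0.368 ± 0.007 (n = 3) in bone marrow. It was 0.450 ± 0.016 (n = 4) in small intestine, 0.468 ± 0.031 (n = 3) in colon and 0.507 ± 0.050 (n = 3) in skin. Every library of these last 3 tissues was above every library of the first 4, the closest being 0.433 in colon and 0.405 in spleen.

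In small intestine 6 of the 17 genes of the particle were called higher and 1 lower, against 24.7% and 16.1% of all genes. Psmd12, a scaffold subunit of the lid, was at 41.9, 47.2, 62.6 and 56.1 TPM in small intestine and at 9.08 to 30.1 TPM in blood, spleen and lung, while skin reached 72.1. It rose by 0.78 ± 0.20 (SE) in small intestine (limma adjusted p = 0.000939). The count of 6 was 3 after median-ratio scaling, 1 after quantile normalization and 3 without small intestine replicate 4, and the lower call was lost with the replicate block. In colon 5 of the 17 were called higher (14.4% of all genes) and none lower, among them the base subunit Psmd2 (0.61 ± 0.21, limma adjusted p = 0.0165; 0.135 without colon replicate 1, 0.0545 without replicate 4, 0.0882 after quantile normalization). The count was 3 with the replicate block, 1 after median-ratio scaling and against the median gene, and none after quantile normalization or without colon replicate 1.

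PA28 was highest in lung, opposite to the 19S particle. Psme2, the PA28β subunit, was at 495, 355 and 835 TPM in lung and at 198 to 365 TPM in the other tissues, so that 1 lung library lay within their range. Psme1, PA28α, was at 366, 416 and 450 TPM in lung, within the 294 to 420 TPM of bone marrow, blood, spleen and small intestine except for its highest library. Relative to the median gene Psme2 rose by 1.49 ± 0.16 (SE; limma adjusted p = 3.61e-05) and Psme1 by 0.98 ± 0.10 (adjusted p = 0.00158). After quantile normalization these changes were 0.93 and 0.46, still called. The third lung library had the highest Psme2, Psmb10, Psmb9 and Psmb8 of the lung libraries. Lung also had higher H2-K1, B2m and H2-D1, with 5 of the 12 interferon and class I genes called higher and 2 lower (9.62% and 42.4% of all genes). PA28 TPM per 19S TPM was 1.14, 1.25 and 2.25 in lung and at most 1.04 in the other tissue libraries.

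In skin Psme1 was at 198, 208 and 242 TPM, below every other library (1.1% of all genes). It fell by 0.83 ± 0.10 (SE; limma adjusted p = 8.32e-06), whereas Psme2 was at 278, 255 and 351 TPM and was not called. Psme3, the nuclear PA28γ, which forms rings of its own, went the other way. At 24.8, 22.1 and 29.0 TPM it was above every other library in skin (3.96% of all genes). It rose there by 0.64 ± 0.22 (limma adjusted p = 0.00581). Psme2b, a near-identical copy of Psme2 at 8.59 to 52.3 TPM, shares reads with it, and its own calls are uncertain. Psme4, the PA200 activator, was at 2.88 to 29.1 TPM and was called in no tissue.

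Of the 8 assembly chaperones and inhibitors 3 were called higher in bone marrow (Psmg1, Psmg2 and Psmd5; 1 without bone marrow replicate 3) and none lower, against 22% and 19.2% of all genes. Psmg1 and Psmg2 form a pair that joins the α ring. Psmg1 was at 42.0, 51.3 and 55.2 TPM in bone marrow and at 4.49 to 32.8 TPM elsewhere, and Psmg2 at 32.3, 33.4 and 45.4 TPM against 1.69 to 31.8. Both were above every other library in bone marrow (7.71% of all genes). Psmg1 rose by 1.59 ± 0.27 (SE; limma adjusted p = 2.01e-05) and Psmg2 by 1.14 ± 0.35 (adjusted p = 0.00619; 0.0569 without bone marrow replicate 3). Psmd5, a chaperone of the 19S base, also rose (0.97 ± 0.35, adjusted p = 0.0174; 0.0706 without bone marrow replicate 1 and 0.0871 without 3), but a blood library at 46.5 TPM was above all bone marrow libraries (18.6 to 24.1 TPM). Of genes outside the naming rule, the maturation factor Pomp rose by 0.46 and Uchl5, a deubiquitinase of the 19S particle, by 1.38 in bone marrow. Psmc3ip, not a subunit, was at 22.0, 15.2 and 19.5 TPM there and at 0 to 4.28 TPM in all other libraries. The inhibitor Psmf1 rose in small intestine by 1.07 ± 0.30 (adjusted p = 0.00251), where it was at 31.8, 15.5, 33.6 and 38.6 TPM, and its second library lay within the range of other tissues.

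In colon Psmg3, which pairs with Psmg4, and Psmd10, a 19S chaperone, were called lower (-0.86 ± 0.27 SE, limma adjusted p = 0.0436; -0.80 ± 0.18, adjusted p = 0.00398), but neither without colon replicate 1 (0.383 and 0.103). Psmg3 fell in small intestine too (-0.89 ± 0.24, adjusted p = 0.0115; 0.0822 without small intestine replicate 2), and it rose in skin (0.87 ± 0.27, adjusted p = 0.0044; 0.0583 without skin replicate 4). The Psmg3 call in colon was lost in 13 alternatives. In spleen Psmg4 rose by 0.83 ± 0.24 (adjusted p = 0.00373).

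Genes around the proteasome were read from lists, whose counts can be set beside the shares of all genes called in each tissue. Nfe2l1, the factor that raises proteasome genes when the proteasome is blocked, was at 4.98 to 22.8 TPM and was called only in lung, where it was lower. Of the 9 genes listed for its control 3 were called higher and none lower in skin (22.2% and 12.5% of all genes), 2 and 3 in bone marrow (22% and 19.2%), 1 and 3 in blood (14.2% and 18.3%), 1 and 3 in spleen (17.4% and 12.5%), none and 5 in lung (9.62% and 42.4%), 3 and 1 in colon (14.4% and 6.36%), and 3 and 2 in small intestine (24.7% and 16.1%). Its relative Nfe2l2 rose by 1.81 in small intestine, 1.73 in colon and 0.64 in skin, and fell by 1.26 in bone marrow, 1.46 in blood and 1.80 in spleen. Of 9 genes listed for ubiquitin supply and unfolding, 3 were called higher and 1 lower in skin, 3 and 2 in small intestine, 2 and 2 in colon and in spleen, 1 and 2 in bone marrow, 1 and 3 in blood, and 2 and 4 in lung.

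In the reporter sort few proteasome genes were called. Of 47 members 1 was called higher (9.18% of all genes tested) and 3 lower (5.25%). The median gene was 0.22 higher (log2) in the positive libraries. After median-ratio scaling none was higher and 7 were lower, after quantile normalization none and 5, and against the median gene none and 9. The higher call was lost without negative replicate 2, 3, 5 or 7 or positive replicate 3, 4, 5 or 8, there were 2 without positive replicate 1, and 1 lower call was left without negative replicate 3, 4 or 5 or positive replicate 1 or 8. The median change of the members was -0.27, that of the core without immunosubunits -0.49 and that of the 19S particle -0.18. Libraries with the same number deviated together here, so the fit with the replicate block is given where it changes a call.

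Psme2 was the clearest difference. It was at 167, 185, 173, 171 and 194 TPM in the 5 positive libraries and at 239, 373, 348, 368, 270 and 340 TPM in the 6 negative ones. Every positive library lay below every negative one, which held for 3.71% of all genes tested. Psme2 fell by 1.05 ± 0.14 (SE; limma adjusted p = 0.00059), and the call held in each alternative run. Its partner Psme1 was at 208 to 342 TPM in the positive and 287 to 380 in the negative libraries, which overlapped, and was not called. PA28 TPM per 19S TPM was 0.405 ± 0.042 (SD, n = 5) and 0.589 ± 0.084 (SD, n = 6), with 1 positive library at 0.468 just above the lowest negative one at 0.467. Of 11 interferon and class I genes 4 were called lower (5.25% of all genes) and none higher (9.18%), among them H2-K1 (-1.19) and B2m (-1.02). The macrophage list (6 of 11 genes measured) summed to 556 to 815 TPM in the positive and 327 to 402 TPM in the negative libraries, and the neutrophil list (6 of 12) to 5841 to 9936 and 9332 to 12659 TPM; their part in these differences was not tested.

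Psmb3, a core subunit, was at 149, 200, 148, 140 and 112 TPM in the positive and 197, 243, 203, 264, 181 and 175 TPM in the negative libraries, with 1 positive library inside the negative range. It fell by 0.71 ± 0.16 (SE; limma adjusted p = 0.0478, or 0.0165 with the replicate block). This call was lost with 8 of the 11 libraries left out singly, at adjusted p of up to 0.131. Psmg3 (-1.30 ± 0.35, adjusted p = 0.049) and Psmf1 (0.64 ± 0.28, adjusted p = 0.0491) lost their calls with the replicate block, at adjusted p = 0.0667 and 0.0938. Psmf1 was at 21.5 to 47.7 TPM in the positive and 7.94 to 21.7 TPM in the negative libraries, overlapping in 1 library on each side.

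Psmb9 was the only member for which every positive library lay above every negative one (5.65% of all genes). It was at 154, 162, 139, 146 and 175 TPM against 119, 112, 131, 137, 123 and 137 TPM. Its change before the shift was 0.29 ± 0.13 (SE) and was not called (limma adjusted p = 0.14), and relative to the median gene it was 0.08. Psmb8 and Psmb10 had lower means in the positive libraries, and neither was called. Psmb8 was at 146 to 216 TPM in the positive and 154 to 258 in the negative libraries, and Psmb10 at 94.2 to 156 and 124 to 231. The immunosubunits summed to 442 ± 43.6 TPM (SD, n = 5) in the positive and 495 ± 65.8 (SD, n = 6) in the negative libraries. Set against its own partner within each library, Psmb9 minus Psmb6 was -0.61 ± 0.40 (SD, n = 5) on the log2(TPM + 1) scale in positive and -1.16 ± 0.29 (SD, n = 6) in negative libraries. This difference of 0.56 had an exact two-sided permutation p of 0.0216, and 0.0649 after Benjamini-Hochberg adjustment over the 3 pairs. With single libraries left out, the adjusted permutation p fell under 0.05 only without negative replicate 8 (0.0238). Part of the difference lies in Psmb6, which had a lower mean in the positive libraries, at 168 to 318 TPM against 235 to 342 TPM. Psmb8 minus Psmb5 differed by 0.28 (exact permutation p = 0.39, adjusted 0.58) and Psmb10 minus Psmb7 by 0.006 (exact permutation p = 0.98). Psmb7, like Psmb10, had a lower mean in the positive libraries, at 47.5 to 104 TPM against 78.5 to 124 TPM. In the 4 same-numbered pairs of libraries the paired difference for Psmb9 minus Psmb6 was 0.44 on average and positive in 4 of 4 pairs, with an exact two-sided sign-flip p of 0.125, the smallest that 4 pairs allow (0.375 after adjustment over the 3 subunit pairs). The immunosubunit share of catalytic TPM was 53.0% ± 6.51 (SD, n = 5) and 49.3% ± 5.72 (SD, n = 6), a difference within the spread of either group.

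**Figure D5:**
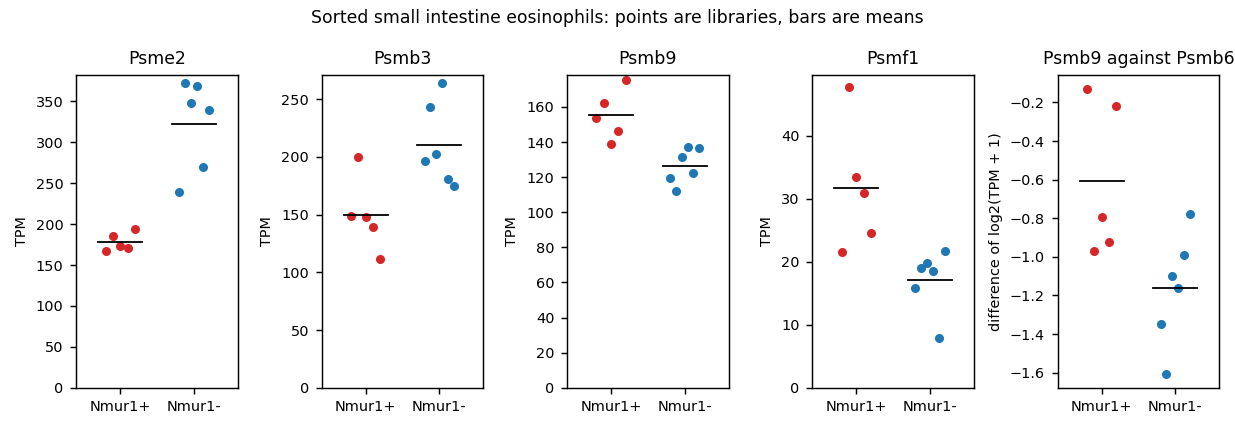
TPM of the called members Psme2, Psmb3 and Psmf1 and of Psmb9 in 5 positive (red) and 6 negative (blue) libraries, with Psmb9 minus Psmb6 on the log2(TPM + 1) scale at the right; bars are means. The groups do not overlap for Psme2 and Psmb9 and do for the others.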

How the data were processed

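The authors deposited TPM values for the tissue and the sorted libraries in a table each, made with cutadapt 2.10, STAR 2.7.5c and RSEM 1.3.3 on mm10, per the submitters' processing notes. How genes were filtered before deposit is not given in the sources used here, and 1 single-cell sample was not analysed here. TPM keeps no depth, so no counting error could be given. Moderated two-sided tests came from limma 3.58.1 (lmFit, eBayes with trend; R 4.3.3) after a log2(TPM + 1) transform, for genes with at least 1 TPM in at least 3 tissue or 5 sorted libraries, with Benjamini-Hochberg adjustment over all genes tested. The 7 tissues were fitted together. The scripts were tested on simulated data. Replicate numbers were taken to pair the sorted libraries in the replicate block only, and the main tests did not use them. In the 4 same-numbered pairs, deviations from the group means correlated at 0.164 to 0.225. In the 26 differently numbered pairs they correlated at -0.175 to 0.194 (median -0.043). Members, roles and lists were chosen with earlier results of these data known. Named in full were the catalytic subunits and up to 3 called members in each direction with the largest change; further members were named after their values were seen. Alternatives were a pseudocount of 0.1, no filter, median-ratio scaling, quantile normalization, a replicate block and leaving out each library.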

Additional observations from a re-analysis of the deposited data

Results flagged for a closer look

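The search covered 343 sets of 4 to 6 libraries, each holding 1 gene or measure in 1 group. In these, 15 values stood far from the others of their set. Chance flags about 1 set in 20, so this is no more than chance would give. The sums and ratios reuse the single genes, so the sets overlap. In blood replicate 2 Psmb2 was at 138 TPM, against 101 to 107 in the other blood libraries. In spleen replicate 1 the 19S ATPases summed to 231 TPM (others 305 to 316) and the whole 19S particle to 714 TPM (others 934 to 972), and PA28 TPM per 19S TPM was 1.04 (others 0.744 to 0.793). In spleen replicate 3 Psma1 was at 203 TPM (others 235 to 236) and Psmb4 at 224 TPM (others 144 to 148). In small intestine Psmc6 was at 76.7 TPM in replicate 1 (others 50.9 to 54.6) and Psmc3ip at 0.97 TPM in replicate 3 (others at 0).

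Among Nmur1+ libraries, Psmc2 was at 89.7 TPM in replicate 3 (others 44.1 to 56.2), Psmg1 at 16.7 TPM in replicate 4 (others 7.69 to 10.2), and replicate 5 had Psmd7 at 24.8 TPM (others 35.7 to 39.2) and an immunosubunit sum of 518 TPM (others 412 to 439). Among Nmur1- libraries, replicate 7 had Psmc5 at 48.6 TPM (others 85.1 to 101) and Psmd9 at 36.0 TPM (others 4.93 to 15.1), and replicate 5 had Psmg2 at 38.6 TPM (others 9.5 to 14.98). Of all flagged values, the 19S sums of spleen replicate 1 bear on the 19S counts of spleen given above. Its PA28 TPM per 19S TPM is the limit of 1.04 given for tissues other than lung. The other flagged values were not traced to single counts.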

How the results depend on the processing

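The depth behind these TPM values is unknown, so what it limits could not be stated. Of 72 calls of named members, 37 were lost in no alternative, among them those of all 3 immunosubunits in skin, and 2 changed sign relative to the median gene: in lung Psmb6 was at -0.353 and Psmb7 at -0.0288 after quantile normalization, and with 1 library left out Psmb6 ranged from -0.0253 (without lung replicate 2) to 0.102 (without lung replicate 3). The 44 members over 7 tissues varied between 43 and 45 when libraries were left out.

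After median-ratio scaling, members called higher numbered 1 in colon, 9 in lung, 0 in the sort, 6 in small intestine and 3 in spleen, and members called lower 0 in bone marrow, 11 in lung, 7 in the sort and 16 in spleen. After quantile normalization, higher were 7 in blood, 32 in bone marrow, 0 in colon, 0 in the sort, 4 in small intestine and 11 in spleen, and lower 14 in colon, 17 in lung, 5 in the sort and 15 in small intestine. Tested against the median gene, an alternative chosen after seeing the data, higher were 2 in colon, 13 in lung, 0 in the sort, 6 in small intestine and 3 in spleen, and lower 8 in lung, 9 in the sort and 16 in spleen. With a pseudocount of 0.1 the sort had 0 higher and 1 lower. The cause of these shifts was not tested.

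With the replicate block the sort had 0 members higher, and the paired difference of Psmb10 minus Psmb7 was -0.14. Tissue libraries with the same number did not deviate together (correlations of -0.045 to 0.088), and the replicate block moved no count over all members of a tissue by over 1.5 times. By role it took the 19S genes called higher in colon from 5 to 3, the core genes called higher in small intestine from 4 to 2 and the 19S gene called lower there from 1 to 0. With 1 library left out, counts ranged from 2 to 5 (higher in blood), 11 to 20 (lower in blood), 0 to 1 (lower in bone marrow), 0 to 7 (higher in colon), 3 to 9 (lower in colon), 6 to 12 (higher in small intestine), 3 to 8 (lower in small intestine), 4 to 14 (lower in spleen), 0 to 2 (higher in the sort) and 1 to 4 (lower in the sort). Psmb10 minus Psmb7 ranged from -0.14 to 0.21 and Psmb9 minus Psmb6 from 0.44 to 0.65.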
